A study of Mus musculus with 11 samples.

Results

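The p53 feedback circuit was read at 6 genes in LSKs, the Lin-Sca1+Kit+ bone marrow cells that hold hematopoietic stem cells and multipotent progenitors. The genes were *Trp53*, its negative regulators *Mdm2*, *Mdm4*, and *Ppm1d*, and the p53 targets *Cdkn1a* and *Ccng1*. They were picked by gene symbol from a table of 12647 genes, and all 6 were among the 12625 genes that passed the filter on low counts. Gene counts came from 9 libraries of steady-state LSKs from young, tumor-free mice, with 3 libraries each from p53+/+, p53R248W/+, and p53-/- mice. The study's methods describe a backcross to the C57BL/6 background for the p53+/+ and p53R248W/+ mice, and none for the p53-/- mice. Per the study's methods, the p53+/+ mice carry the humanized *HUPKI* allele, in which human sequence replaces the central part of mouse *Trp53* under its own promoter. The R248W substitution, which lies in the DNA-binding domain, sits on 1 such allele in the p53R248W/+ mice, next to a *HUPKI* allele without the substitution. The exons missing from the p53-/- allele, and whether a library came from 1 mouse or a pool, are not given in the sources used here. The p-values therefore measure the spread between these libraries, which may be technical in part.

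p53 is a transcription factor that cells keep at a low level under steady state by constant degradation. The E3 ubiquitin ligase MDM2 marks p53 for the proteasome, and its partner MDM4 covers the transactivation domain of p53. p53 in turn activates *Mdm2*, so the protein and its inhibitor form a negative feedback loop, and the phosphatase made by *Ppm1d* (WIP1), also induced by p53, closes a further loop by removing activating phosphates from p53 and from ATM. *Cdkn1a* encodes p21, the inhibitor of cyclin-dependent kinases through which p53 arrests the cell cycle, and *Ccng1* encodes cyclin G1, which brings the phosphatase PP2A to MDM2. In hematopoietic stem cells, p53 and p21 are known for their part in quiescence.

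The 6 genes lie on 4 chromosomes of the GRCm38 build. *Trp53* is at chr11:69580348-69591873 on the plus strand, and *Ccng1* (chr11:40748552-40755309, minus strand) and *Ppm1d* (chr11:85311254-85347071, plus strand) share its chromosome at distances of 28.8 Mb and 15.7 Mb. *Mdm4* is at chr1:132986105-133030587 and *Mdm2* at chr10:117688875-117710758, both on the minus strand. *Cdkn1a* is at chr17:29090979-29100722 on the plus strand. The sequence around the start sites was searched for the p53 response element in its form of a pair of adjoining decamers. Decamers with a spacer between them were not searched. The search covered 5000 bp on each side of every RefSeq start site and allowed up to 2 mismatches in the 20 bases. The C and the G that bound the core of each decamer had to match, while the 2 bases between them could mismatch. The same matches were found on both strands because the element is palindromic. Of the 6 genes, 2 held a match, *Cdkn1a* and *Ccng1*. Among 9941 tested genes with a listed start site, 12.1% held a match, 2.14% held one with at most 1 mismatch, and 1.15% held 2 or more. *Trp53*, *Mdm2*, *Mdm4*, and *Ppm1d* had 0 matches, which says only that these letters were not found in this window.

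These stretches are printed because the 2 targets with a match gave different calls in p53-/- LSKs, *Cdkn1a* lower and *Ccng1* not called. That difference between the 2 genes was not itself tested. The first is the 250 bases before the upstream start site of *Cdkn1a*, chr17:29090729-29090978 on the plus strand. The second is the 250 bases before the start site of *Ccng1*, chr11:40755287-40755536 on the minus strand. Capitals mark the element in each, and the sequences are from the GRCm38.p6 reference at RefSeq start sites.
Cdkn1a promoter: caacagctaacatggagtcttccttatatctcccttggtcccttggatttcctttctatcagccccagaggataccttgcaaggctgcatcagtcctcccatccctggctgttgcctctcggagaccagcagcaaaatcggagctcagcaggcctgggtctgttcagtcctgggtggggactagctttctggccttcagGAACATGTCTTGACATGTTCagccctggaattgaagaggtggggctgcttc
Ccng1 promoter: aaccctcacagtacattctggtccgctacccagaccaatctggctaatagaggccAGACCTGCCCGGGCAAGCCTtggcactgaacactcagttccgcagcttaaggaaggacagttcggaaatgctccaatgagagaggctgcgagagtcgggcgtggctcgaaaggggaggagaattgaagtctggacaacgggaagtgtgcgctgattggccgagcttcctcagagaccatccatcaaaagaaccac
Ccng1 intron 1: ccggaACGCAAGCCCGGGCTAGTCTgcgcc
The *Cdkn1a* element, at chr17:29090928-29090947, lay 42 bp before this start site and 2832 bp before a downstream start site of the same gene, and it had 1 mismatch. The promoter element of *Ccng1*, at chr11:40755462-40755481, lay 186 bp before the start and had 1 mismatch. *Ccng1* held a further element of 1 mismatch in intron 1, at chr11:40754936-40754955, 340 bp past the start. Binding of p53 to these sites was not measured in these libraries.

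Library totals ran from 18021375 to 29750702 counts, with a median of 20116602, and were highest in p53R248W/+ replicate 1. The biological coefficient of variation over all genes was 0.281, and replicate libraries of a genotype differed beyond sampling noise. The genes that define the gate were high in every library, with *Kit* between 427 and 861 CPM and *Ly6a*, which encodes Sca1, between 149 and 444 CPM. CPM are counts scaled to a common library total with TMM factors, and RPKM divide these by the deposited gene length so that genes can be compared with each other. Of 13 LSK markers 1, *Hlf*, was called in p53-/- against p53+/+ LSKs, where it was higher (adjusted p = 0.0242, edgeR) and where 3.5% of all genes were called. Of 11 mature myeloid, 7 lymphoid, 8 erythroid and megakaryocyte, and 3 stromal and endothelial markers 0 were called in p53-/- against p53+/+ LSKs by edgeR (5, 3, 3, and 2 at an unadjusted p under 0.05, which 23.4% of all genes passed). In p53R248W/+ against p53+/+ LSKs 0 were called (1, 0, 1, and 1 at an unadjusted p under 0.05, beside 0.958% of all genes), and in p53-/- against p53R248W/+ LSKs 1, 1, 0, and 2 were called, beside 3.44% of all genes. Over the 11 mature myeloid markers in the table the summed level was 2585 to 7021 CPM in p53+/+, 4032 to 8773 in p53R248W/+, and 1908 to 2188 in p53-/- libraries, so that the first 2 ranges overlapped, with *Mpo*, a granule enzyme that progenitors also express, the highest of them. Other cell types gave lower sums, from 212 to 438 CPM over 7 lymphoid markers (highest *Nkg7*), 109.6 to 219 CPM over 8 erythroid and megakaryocyte markers (highest *Itga2b*), and 48.4 to 156 CPM over 3 stromal and endothelial markers (highest *Pecam1*), and the highest library of each was never a p53-/- one. The last of these sums was mostly *Pecam1*, with means of 123 CPM in p53+/+ and 63.1 CPM in p53-/- LSKs. *Col1a2* went the other way, at 2.76 and 6.94 CPM, and *Kdr* was at 1.46 and 1.42 CPM. Of the 2 stromal and endothelial calls against p53R248W/+ LSKs, 1 was higher and 1 lower in p53-/- LSKs. Y-linked genes were read in 1 of 3 p53+/+ and 2 of 3 p53R248W/+ libraries and were near 0 in the p53-/- libraries, so the sex of the mice and the genotype are partly confounded. Besides, in p53+/+ replicate 2 and p53R248W/+ replicate 2, *Xist* was read at 65.0 and 149 CPM beside *Ddx3y*, which is Y-linked, at 33.6 and 25.1 CPM, so reads of both sexes were present. In bulk RNA, fewer cells of a type and less RNA per cell cannot be told apart.

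*Trp53* was the most abundant of the 6 genes per length in every genotype. In mean RPKM it reached 126 in p53+/+, 124 in p53R248W/+, and 65.6 in p53-/- LSKs, and 93.5% of genes were lower than it in p53+/+ LSKs. In p53+/+ LSKs *Ccng1* and *Cdkn1a* followed at 25.5 and 25.4 RPKM, then *Mdm2* at 23.3, *Ppm1d* at 13.8, and *Mdm4* at 6.92. The first 3 of these 5 spanned overlapping ranges over the libraries, whereas *Ppm1d* lay below them and *Mdm4* below *Ppm1d* in each p53+/+ library. In p53-/- LSKs *Cdkn1a* had the lowest mean, 6.09 RPKM beside 6.15 for *Mdm4*, with overlapping ranges, while *Ccng1* (31.2) and *Mdm2* (25.2) led the 5 genes after *Trp53*.

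**Figure D1:**
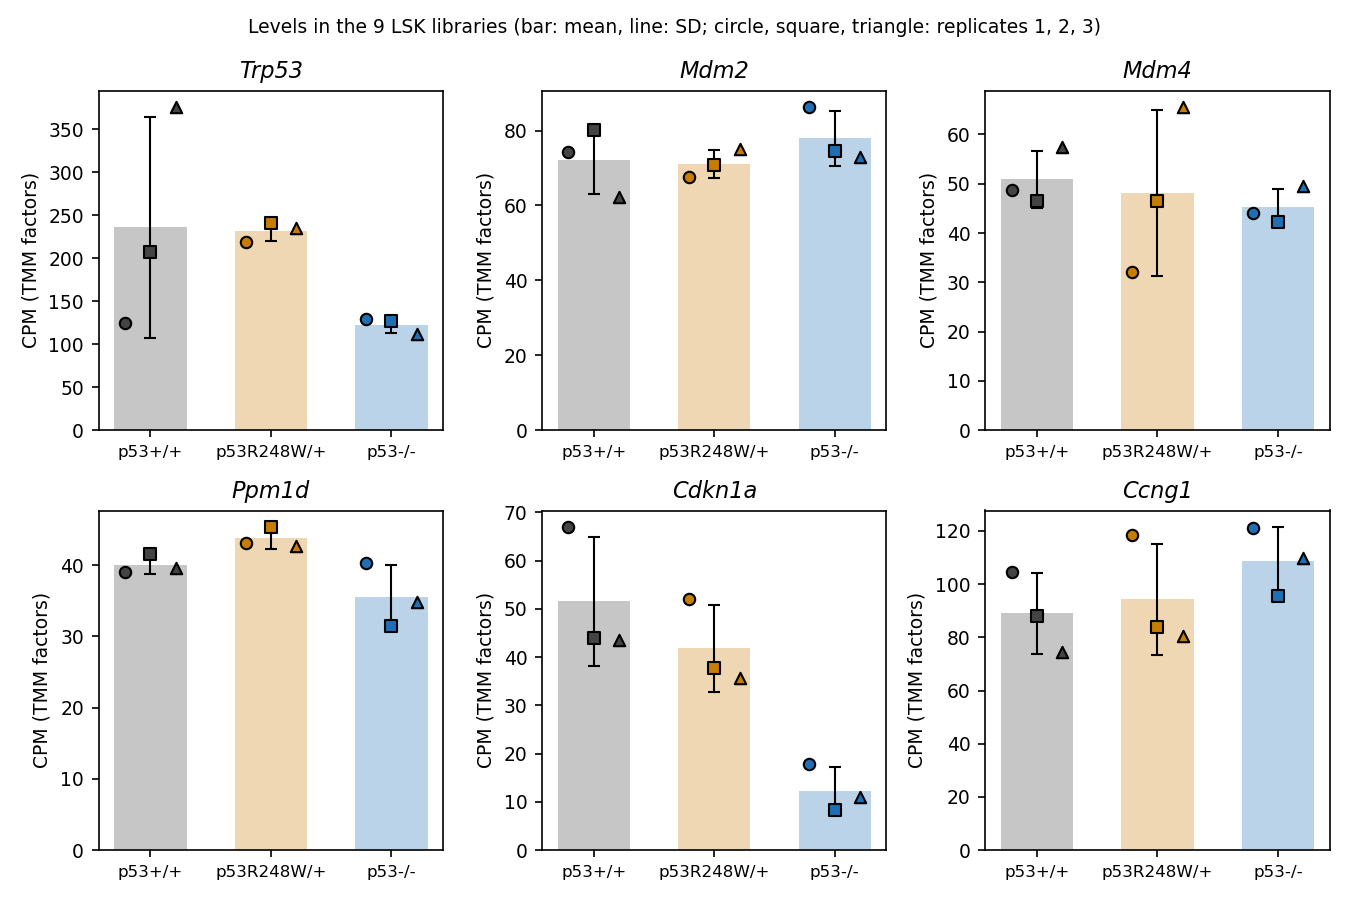
CPM with TMM factors of the 6 genes in each of the 9 LSK libraries, by genotype. Bars give the mean of 3 libraries and lines the SD. *Cdkn1a* lies between 8.27 and 17.8 in p53-/- libraries and at 35.7 or above in all others, whereas *Mdm2*, *Mdm4*, and *Ccng1* overlap between genotypes.

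The gene that was targeted, *Trp53*, still gave reads in the p53-/- libraries. Its level was 125, 207, and 376 CPM in p53+/+ replicates 1, 2, and 3, which is a 3.02-fold range, against 219, 240.5, and 235 CPM in p53R248W/+ and 129, 127, and 112 CPM in p53-/- replicates 1, 2, and 3. All p53R248W/+ libraries lay above all p53-/- libraries, but p53+/+ replicate 1 fell inside the p53-/- range. The deleted exons are not given, so a count over the whole gene does not check the genotype of a library, and the loss of reads from human sequence aligned to the mouse genome cannot be told apart from a lower level. The coefficient of variation of *Trp53* in p53+/+ LSKs, 54.4%, exceeded that of 94.4% of genes, and it was 4.91% in p53R248W/+ and 7.43% in p53-/- LSKs. Counting error was at most 2.09% for *Trp53* in any library.

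*Trp53* fell short of the threshold in each comparison. Its log2 fold change in p53-/- LSKs was -0.94 against p53+/+ LSKs (SE 0.31, adjusted p = 0.0953, edgeR quasi-likelihood test) and -0.92 against p53R248W/+ LSKs (SE 0.31, adjusted p = 0.113, edgeR). Leaving out p53+/+ replicate 1 gave -1.25 against p53+/+ LSKs (adjusted p = 0.0248, edgeR), and leaving out p53+/+ replicate 3 gave -0.44 (adjusted p = 0.370, edgeR). The size and the call thus changed with the p53+/+ library left out. DESeq2 called *Trp53* in both comparisons, with adjusted p = 0.0259 and 0.0360. Between p53R248W/+ and p53+/+ LSKs the difference was -0.03, with a 95% interval from -0.69 to 0.63. *Wrap53*, the antisense neighbor that overlaps *Trp53*, had log2 fold changes of 0.33 and 0.29 in p53-/- LSKs against the other 2 genotypes (adjusted p = 0.284 and 0.376, edgeR), and the strand setting of the counting is not given in the sources used here.

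*Mdm2*, the ligase of the loop and a classical p53 target, differed between genotypes by less than the spread of the libraries. Its level was 74.3, 80.2, and 62.2 CPM in p53+/+, 67.5, 70.8, and 75.0 CPM in p53R248W/+, and 86.4, 74.7, and 72.9 CPM in p53-/- libraries. The highest library was a p53-/- one and the groups overlapped. In p53-/- against p53+/+ LSKs the log2 fold change was 0.11, with a 95% interval from -0.24 to 0.46 (adjusted p = 0.717, edgeR). In p53R248W/+ against p53+/+ LSKs it was -0.02, with an interval from -0.37 to 0.32. Mouse *Mdm2* has a constitutive promoter and a p53-responsive promoter in its first intron, and gene counts sum over both.

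*Mdm4*, the inhibitor that pairs with MDM2, was the lowest of the 6 genes per length in p53+/+ and p53R248W/+ LSKs. Its level was 48.7, 46.6, and 57.4 CPM in p53+/+, 32.1, 46.5, and 65.6 CPM in p53R248W/+, and 44.1, 42.2, and 49.4 CPM in p53-/- libraries. The p53R248W/+ libraries spanned both the lowest and the highest value of the 9, and the other groups lay inside that range. The log2 fold changes were -0.17 for p53-/- and -0.08 for p53R248W/+ against p53+/+ LSKs, with 95% intervals from -0.69 to 0.35 and from -0.60 to 0.43.

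*Ppm1d* varied least of the 6 genes within p53+/+ and within p53R248W/+ LSKs and stood highest in the latter. Its level was 39.0, 41.6, and 39.7 CPM in p53+/+, 43.2, 45.4, and 42.7 CPM in p53R248W/+, and 40.4, 31.4, and 34.8 CPM in p53-/- libraries. Every p53R248W/+ library was above every library of the other genotypes, while p53-/- replicate 1 lay among the p53+/+ libraries. The differences were small, with log2 fold changes of 0.13 for p53R248W/+ against p53+/+ LSKs (95% interval -0.23 to 0.48) and -0.30 for p53-/- against p53R248W/+ LSKs (SE 0.16, unadjusted p = 0.0911, adjusted p = 0.322, edgeR). The groups did not overlap for 5.04% of all genes in the first of these comparisons and 24.2% in the second, so the separation of *Ppm1d* is a description. Its coefficient of variation was 3.36% in p53+/+ and 3.27% in p53R248W/+ LSKs, where the medians over all genes were 17.8% and 21.8%.

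*Cdkn1a* was the single gene of the 6 that passed the threshold, and it did so in both comparisons with p53-/- LSKs. Its level was 67.0, 44.0, and 43.6 CPM in p53+/+, 52.1, 37.7, and 35.7 CPM in p53R248W/+, and 17.8, 8.27, and 10.9 CPM in p53-/- libraries, on counts from 183 to 1450. All p53-/- libraries lay below all others, and the p53+/+ and p53R248W/+ ranges overlapped. *Cdkn1a* fell by 2.07 on the log2 scale in p53-/- against p53+/+ LSKs (SE 0.30, 4.18-fold, adjusted p = 0.00914, edgeR), where it was number 25 of 12625 genes by p. It fell by 1.76 in p53-/- against p53R248W/+ LSKs (SE 0.30, 3.40-fold, adjusted p = 0.0126, edgeR). The p53R248W/+ libraries thus held more *Cdkn1a* RNA than the p53-/- libraries. Against p53+/+ LSKs, p53R248W/+ LSKs differed by -0.30, with a 95% interval from -0.93 to 0.32. The labels state no batch, and a separate preparation of the p53-/- libraries cannot be told apart from genotype.

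In p53-/- against p53+/+ LSKs 1 of the 6 genes was called, where the same rule called 3.5% of all genes (2.25% lower and 1.25% higher), and the median log2 fold change of the 6 was -0.17 beside -0.0012 over all genes. In p53-/- against p53R248W/+ LSKs 1 of 6 was called, beside 3.44% of all genes (2.34% lower and 1.1% higher). In p53R248W/+ against p53+/+ LSKs 0 of 6 were called, beside 0.00792% of all genes, by edgeR, 0 by DESeq2 and limma-voom, and 0 at an unadjusted p under 0.05, which 0.958% of all genes passed. In the 2 comparisons with p53-/- LSKs, against p53+/+ and p53R248W/+, 23.4% and 21% of all genes passed an unadjusted p of 0.05 and the groups did not overlap for 31.4% and 24.2%, and of the 6 genes *Cdkn1a* and *Trp53* passed it in both. The p53-/- comparisons share libraries with each other and are not independent. The call of *Cdkn1a* against p53R248W/+ LSKs was lost without p53-/- replicate 2 (adjusted p = 0.0519, edgeR) or without p53-/- replicate 3 (adjusted p = 0.0592, edgeR), whereas that against p53+/+ LSKs was kept under all 16 alternatives run, with adjusted p up to 0.0427. Without replicate 2 of p53+/+ or of p53R248W/+, the libraries with reads of both sexes, the log2 fold changes of *Cdkn1a* in p53-/- LSKs were -2.17 and -1.83 (adjusted p = 0.0171 and 0.0349, edgeR).

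**Figure D2:**
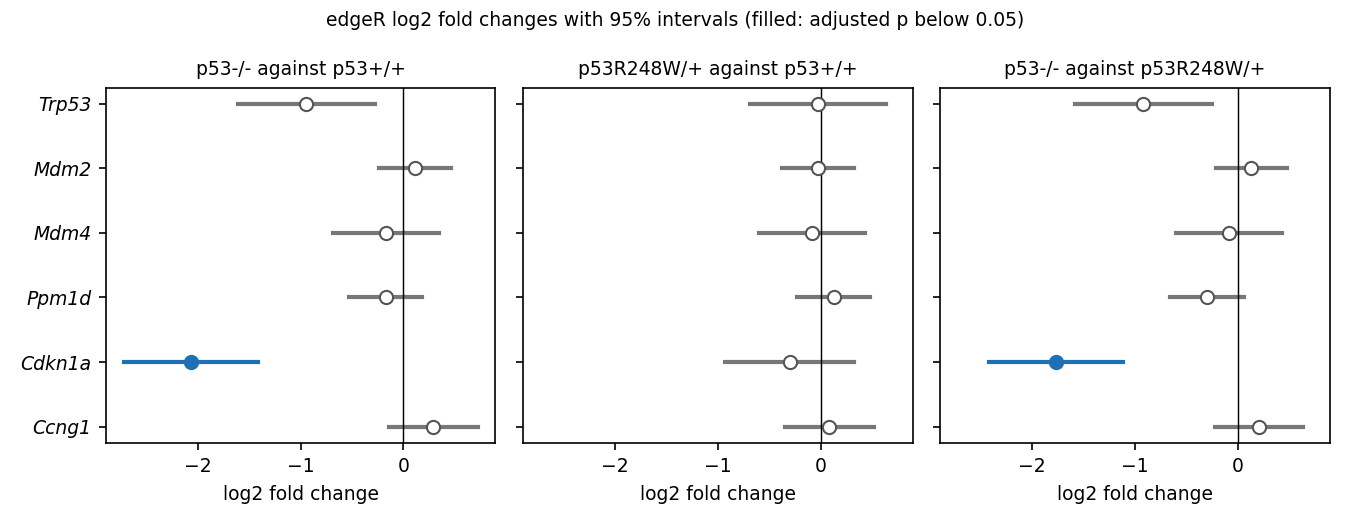
Log2 fold changes (edgeR) of the 6 genes in the 3 comparisons of LSK genotypes, with lines for the 95% interval and filled points for an adjusted p below 0.05. *Cdkn1a* at -2.07 and -1.76 is the filled point in both comparisons with p53-/- LSKs, and no point is filled between p53R248W/+ and p53+/+ LSKs.

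Levels of stress and proliferation genes were read beside *Cdkn1a*. The 17 immediate early and heat shock genes, which react to cell stress and handling, had a summed level of 6110, 4591, and 2322 CPM in p53+/+, 7959, 2168, and 4997 CPM in p53R248W/+, and 1647, 1838, and 1324 CPM in p53-/- libraries, and 4 of the 17 were called lower in p53-/- against p53+/+ LSKs (*Jun*, *Fos*, *Hspa1a*, and *Zfp36*), beside 2.25% of all genes called lower. DESeq2 called 9 of the 17, while edgeR called 2 without p53+/+ replicate 3 and 0 without p53+/+ replicate 2 or any p53-/- library. The 20 proliferation genes summed to 5156 to 6621, 5312 to 6009, and 3565 to 5228 CPM in the same order of genotypes, so that the ranges of p53+/+ and p53-/- libraries overlapped. Of the 20, 3 were called lower in p53-/- against p53+/+ LSKs (*Top2a*, *Mki67*, and *Kif11*), and 0 were called without p53+/+ replicate 2 or 3 or without p53-/- replicate 2 or 3. All 20 had log2 fold changes below 0 in p53-/- against p53+/+ and against p53R248W/+ LSKs. The medians were -0.55 and -0.65, beside -0.0012 and -0.019 over all genes. At an unadjusted p under 0.05 (edgeR) there were 12 and 10 of the 20, beside 23.4% and 21% of all genes. The same 4 stress genes and 3 proliferation genes were called lower against p53R248W/+ LSKs, and 0 genes of either list were called in p53R248W/+ against p53+/+ LSKs (edgeR, 1 stress gene and 0 proliferation genes at an unadjusted p under 0.05).

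The neutrophil granule genes *Camp* and *Ltf* summed to 3.98, 820.4, and 29.2 CPM in p53+/+, 17.0, 513, and 11.9 CPM in p53R248W/+, and 1.14, 1.90, and 1.08 CPM in p53-/- libraries. The part of proliferation, stress, and myeloid genes in the difference in *Cdkn1a* was not tested.

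**Figure D3:**
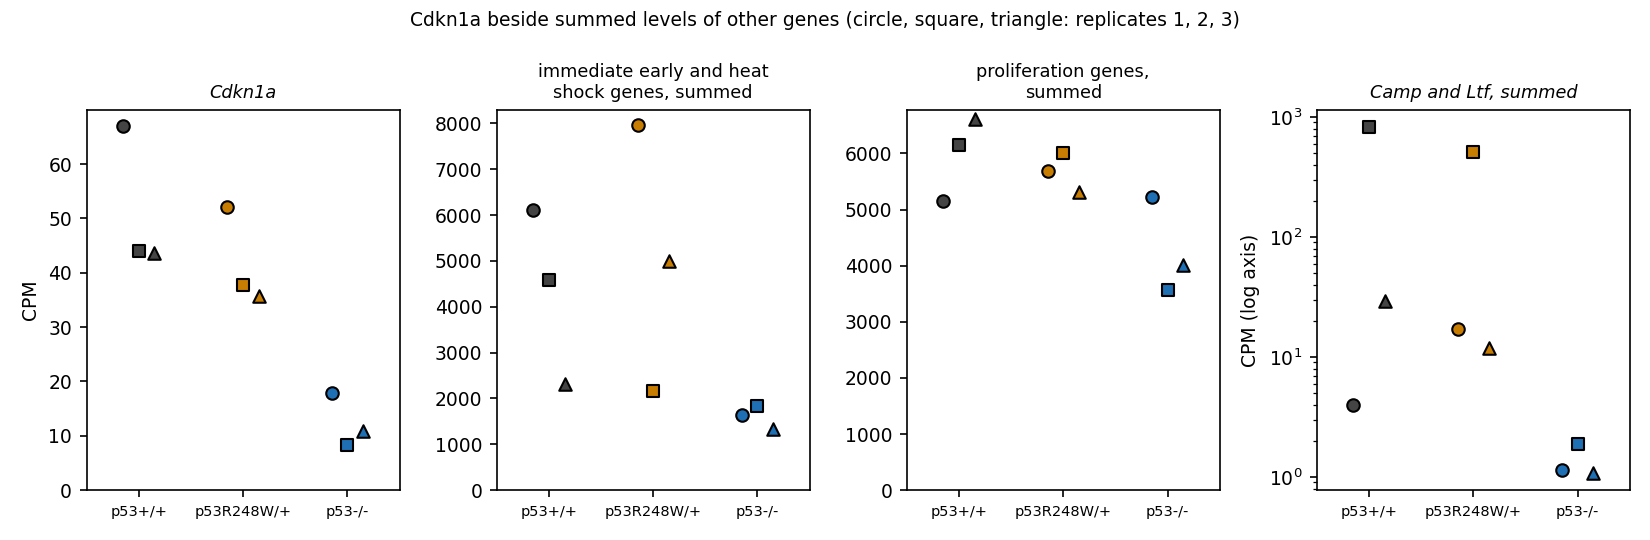
*Cdkn1a* and the summed CPM of 17 immediate early and heat shock genes, 20 proliferation genes, and *Camp* plus *Ltf* in each LSK library, on linear axes except for the last panel, which has a log axis. Each point is 1 library. The stress gene sums run from 2322 to 6110 in p53+/+, 2168 to 7959 in p53R248W/+, and 1324 to 1838 in p53-/- libraries, and *Cdkn1a* in p53-/- libraries lies between 8.27 and 17.8.

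*Ccng1*, the other target with a match to the element, was not called in p53-/- LSKs. Its level was 104, 88.1, and 74.3 CPM in p53+/+, 118, 84.1, and 80.4 CPM in p53R248W/+, and 121, 95.6, and 109.6 CPM in p53-/- libraries. The p53-/- mean was the highest of the 3 genotypes and the groups overlapped. The log2 fold change in p53-/- against p53+/+ LSKs was 0.29, with a 95% interval from -0.14 to 0.72 (adjusted p = 0.404, edgeR), and in p53R248W/+ against p53+/+ LSKs it was 0.08, with an interval from -0.35 to 0.52. Replicate 1 was the highest library of its genotype for both *Ccng1* and *Cdkn1a* in all 3 genotypes, as an observation without a test.

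Ratios of RPKM within a library do not depend on its scaling. *Cdkn1a* to *Ccng1* was 0.860 to 1.10 in p53+/+, 0.758 to 0.772 in p53R248W/+, and 0.149 to 0.253 in p53-/- libraries. The p53-/- libraries lay below all others, and those of the other 2 genotypes did not overlap either. *Cdkn1a* to *Mdm2* was 0.839 to 1.38, 0.727 to 1.18, and 0.169 to 0.315 in the same order. *Ppm1d* to *Mdm2* was 0.451 to 0.511 in p53-/- libraries and 0.555 to 0.687 in the others, without overlap. *Ccng1* to *Mdm2* (0.953 to 1.56 over all libraries) and *Mdm2* to *Mdm4* (2.57 to 4.99) overlapped between genotypes. *Mdm2* to *Trp53* rested on *Trp53*, with 0.0997 to 0.359 in p53+/+, 0.177 to 0.192 in p53R248W/+, and 0.356 to 0.404 in p53-/- libraries. How often the ratios of other gene pairs separate between genotypes was not read, so these separations are descriptions. In CPM, *Cdkn1a* and *Ccng1* each overlapped between p53+/+ and p53R248W/+ libraries. No test was run on the ratios.

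**Figure D4:**
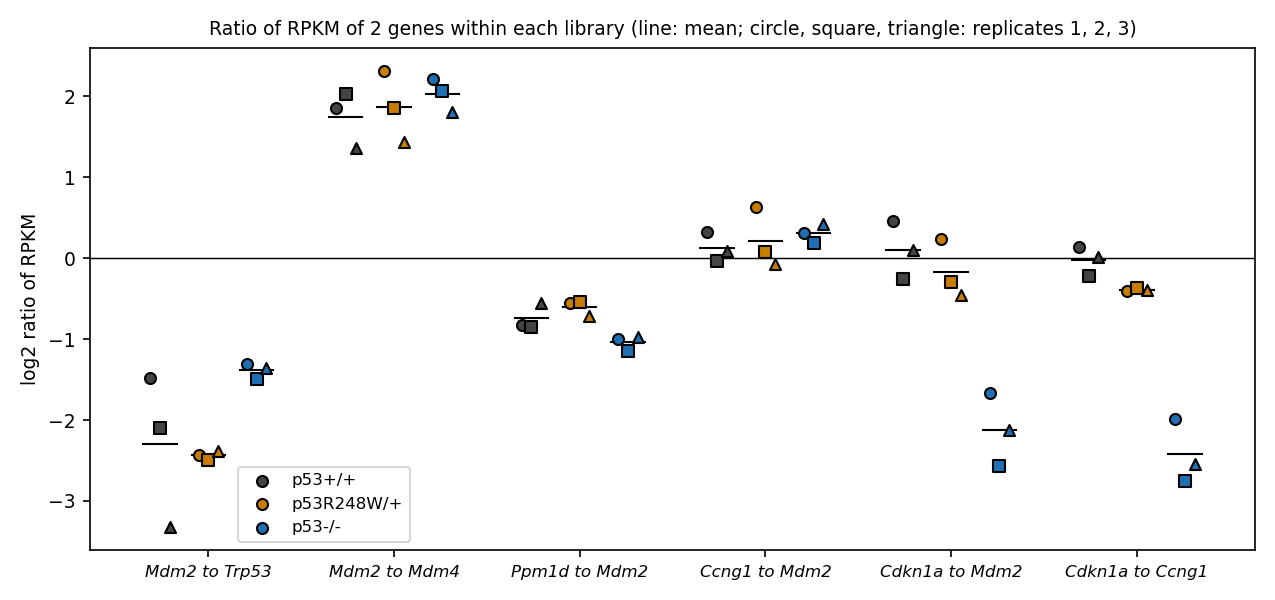
Log2 ratios of RPKM between pairs of the 6 genes in each library, by genotype, with a line at the mean of 3 libraries. *Cdkn1a* to *Ccng1* averages -0.02 in p53+/+, -0.39 in p53R248W/+, and -2.42 in p53-/- LSKs, while *Mdm2* to *Mdm4* stays between 1.36 and 2.32 in all 9 libraries.

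The genes with the pattern nearest to each of the 6 were found by the root mean square difference of log2 CPM, centered per gene, over the 9 libraries, which is 0 for identical patterns. For *Cdkn1a* they were *Nfkbid* (0.257) and *Klrb1f* (0.303), where the median over genes was 1.04. *Nfkbid*, which encodes a nuclear I-kappa-B protein, stood at 22.0 to 40.4 CPM in p53+/+, 14.7 to 34.2 CPM in p53R248W/+, and 6.19 to 10.1 CPM in p53-/- libraries. For *Ccng1* they were *9530068E07Rik* (0.0405) and *Itfg1* (0.0649), with a median of 0.401. For *Mdm2* they were *Ncoa4* (0.0484) and *Aftph* (0.0550), for *Mdm4* *Gcfc2* (0.105) and *Jmjd8* (0.109), and for *Ppm1d* *Zfp422* (0.0616) and *Spop* (0.0691). For *Trp53* they were *Mphosph10* (0.168) and *Lyar* (0.174), both of which encode nucleolar proteins, and *Lyar* ran from 43.6 to 112 CPM over the p53+/+ libraries and from 35.3 to 37.3 CPM over the p53-/- libraries. Genes with a small overall spread give small differences, and with Pearson's r in place of this measure *Nfkbid* and *9530068E07Rik* were the names that recurred, 2 of 12.

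Upstream of p53, 2 of 12 kinases and DNA damage sensors were called lower in p53-/- against p53+/+ LSKs, where 2.25% of all genes were called lower. The list of 12 also counts *Wrap53*, the antisense neighbor of *Trp53*. The median log2 fold change over the list was -0.57, beside -0.0012 over all genes. Of the 12, 7 passed an unadjusted p of 0.05, beside 23.4% of all genes, with 6 lower and 1, *Chek2*, higher. *Rad50*, a subunit of the complex that senses double-strand breaks, was at 62.2, 97.6, and 97.1 CPM in p53+/+ and 19.3, 29.3, and 30.9 CPM in p53-/- libraries (log2 fold change -1.69, SE 0.34, adjusted p = 0.0266, edgeR). *Prkdc*, the catalytic subunit of DNA-dependent protein kinase, had a log2 fold change of -0.84 (SE 0.21, adjusted p = 0.0494, edgeR). Both were lower in each p53-/- library than in every p53+/+ library, and both calls were lost when p53+/+ replicate 2, p53+/+ replicate 3, or any p53-/- library was left out. *Atm* (-0.62), *Chek1* (0.08), and *Chek2* (0.46), which encode kinases that act on p53, were not called, with adjusted p from 0.156 to 0.860 (edgeR). In p53-/- against p53R248W/+ LSKs *Rad50* alone was called (-1.62, adjusted p = 0.0283, edgeR), and the call was lost with limma-voom, with Y-linked expression in the model, with the 6 libraries compared, and without p53R248W/+ replicate 2, p53R248W/+ replicate 3, or any p53-/- library.

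Regulators of p53 stability were not called in any of the 3 comparisons (0 of 14 each by edgeR), with 5, 0, and 3 at an unadjusted p under 0.05 for p53-/- against p53+/+, p53R248W/+ against p53+/+, and p53-/- against p53R248W/+ LSKs, which 23.4%, 0.958%, and 21% of all genes passed. In the first comparison the smallest p belonged to *Rchy1*, a ubiquitin ligase for p53 known as PIRH2, with a log2 fold change of 0.75 (adjusted p = 0.0923, edgeR), while *Usp7*, the enzyme that removes ubiquitin from p53 and MDM2, had -0.25. *Cdkn2a*, whose ARF product inhibits MDM2, was not analysed here. Of 12 coactivators and deacetylases 0 were called in any comparison, with 2, 0, and 0 at an unadjusted p under 0.05 in the same order, and the smallest p in the first comparison was that of *Trp53bp2* (-0.80, adjusted p = 0.192, edgeR). DESeq2 called 2 of the stability regulators in p53-/- against p53+/+ LSKs.

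Downstream of p21 and cyclin G1 the calls were read beside the same shares of all genes. Of 17 substrates and partners of p21 0 were called in any comparison by edgeR (4, 0, and 3 at an unadjusted p under 0.05, in the same order), while DESeq2 called 1 in each comparison with p53-/- LSKs. *Cdk6*, a kinase of the G1 phase, had the smallest p, with log2 fold changes of -0.80 and -0.82 in p53-/- LSKs against p53+/+ and p53R248W/+ LSKs (adjusted p = 0.0690 and 0.0711, edgeR), and *Cdk2* had 0.28 and 0.36. Of 10 cyclin G1 partners, mostly PP2A subunits, 1 was called lower in p53-/- against p53R248W/+ LSKs, the regulatory subunit *Ppp2r5e* (log2 fold change -0.92, SE 0.22, adjusted p = 0.0457, edgeR). That call stood beside 2.34% of all genes called lower, and it was lost in the same alternatives as that of *Rad50* against p53R248W/+ LSKs. Its adjusted p was 0.0620 (edgeR) against p53+/+ LSKs, where 0 of the 10 were called (2 at an unadjusted p under 0.05).

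Of 9 paralogues of the 6 genes 0 were called in any comparison (3, 0, and 1 at an unadjusted p under 0.05, beside 23.4%, 0.958%, and 21% of all genes), and their median log2 fold change in p53-/- against p53+/+ LSKs was 0.39, beside -0.0012 over all genes. *Ccng2*, the paralogue of *Ccng1*, was at 106, 99.8, and 63.4 CPM in p53+/+ and 137, 153, and 96.0 CPM in p53-/- libraries (log2 fold change 0.52, adjusted p = 0.189, edgeR). *Cdkn1c* and *Cdkn1b*, which encode p57 and p27, had log2 fold changes of 0.51 and 0.39 (adjusted p = 0.328 and 0.563, edgeR), and *Ppm1k* had the smallest p of the list (0.66, adjusted p = 0.132, edgeR). *Trp63* and *Trp73* were not analysed here.

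Among 35 other p53 targets, the calls in p53-/- against p53+/+ LSKs went in both directions, with 2 higher and 2 lower, beside 1.25% and 2.25% of all genes, and 15 passed an unadjusted p of 0.05, beside 23.4%. *Sesn1*, a stress-induced regulator of mTORC1 signaling, rose by a log2 fold change of 0.76 (SE 0.16, adjusted p = 0.0332, edgeR), from 256, 238, and 195 CPM in p53+/+ to 417, 336, and 410.0 CPM in p53-/- libraries. *Ak1*, an adenylate kinase, rose by 1.07 (adjusted p = 0.0442, edgeR). *Pidd1*, a death domain protein of the PIDDosome, fell by 1.59 (adjusted p = 0.0377, edgeR), and *Ercc5*, an endonuclease of nucleotide excision repair, fell by 1.15 (adjusted p = 0.0400, edgeR). The 4 calls were lost when p53+/+ replicate 2, p53+/+ replicate 3, or any p53-/- library was left out. *Ndn*, which encodes Necdin, had 1.05 (adjusted p = 0.0506, edgeR). In p53-/- against p53R248W/+ LSKs 0 of the 35 were called by edgeR, 12 at an unadjusted p under 0.05 (beside 21% of all genes), and DESeq2 called 8.

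In p53R248W/+ against p53+/+ LSKs 0 of the 35 targets were called by edgeR, with 2 at an unadjusted p under 0.05, beside 0.958% of all genes. *Phlda3*, an inhibitor of AKT, had the smallest p. Its level was 25.0, 16.7, and 13.2 CPM in p53+/+, 12.3, 9.53, and 8.55 CPM in p53R248W/+, and 9.14, 9.35, and 7.81 CPM in p53-/- libraries. The p53R248W/+ libraries all lay below the p53+/+ libraries and overlapped with the p53-/- libraries, with log2 fold changes of -0.85 and -1.06 against p53+/+ LSKs (adjusted p = 1.00 and 0.0571, edgeR). Groups did not overlap for 2 of the 35 targets in p53R248W/+ against p53+/+ LSKs, beside 5.04% of all genes, so the separation of *Phlda3* is a description. The median log2 fold change of the 35 was -0.11, beside 0.01 over all genes, with 24 of 35 below 0.

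**Figure D5:**
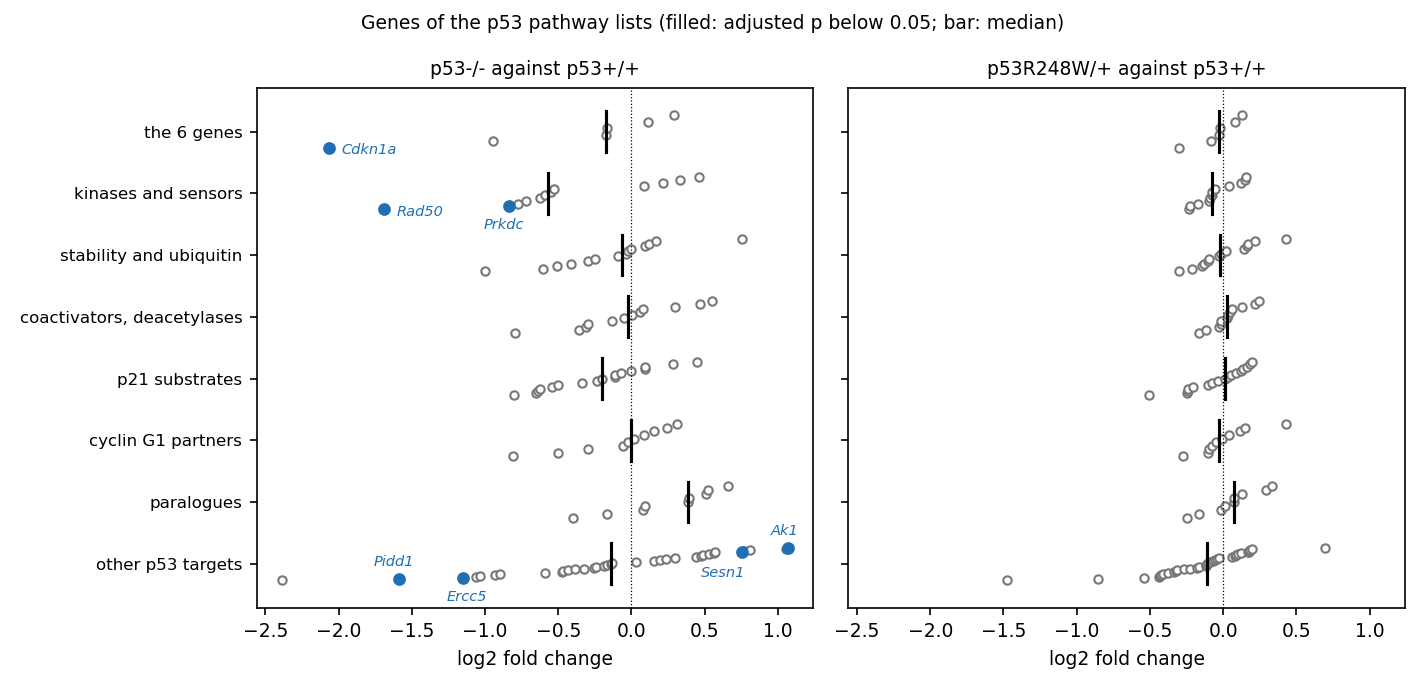
Log2 fold changes of the 6 genes and of 7 lists around p53 in p53-/- (left) and p53R248W/+ (right) against p53+/+ LSKs, 1 point per gene, with filled points for an adjusted p below 0.05 and bars at the median. The left panel has 7 filled points, among them *Cdkn1a* at -2.07 and *Sesn1* at 0.76, and the right panel has 0.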

How the data were processed

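The authors deposited whole-number read counts per gene for 9 LSK libraries, without normalization. The labels name STAR 2.5.2b, Subread 1.5.0 with featureCounts, edgeR, and the mm10 build. The authors' columns, which hold fold changes, p-values, and FDR for each pair of genotypes, were not used, and 2 H3K27me3 ChIP-seq samples were not analysed here. The methods describe oligo(dT) selection, the labels a SMART-Seq kit. Library totals were 18021375 to 29750702 counts, with a median of 20116602. Genes were tested with edgeR 4.0.16 (R 4.3.3), using filterByExpr, TMM scaling, and a single quasi-likelihood model of the 9 libraries (Benjamini-Hochberg adjustment over 12625 genes, threshold 0.05) and checked on simulated data. CPM intervals cover counting error only. Elements and promoters were read from GRCm38.p6 with Python 3.11.15. Alternatives were DESeq2 1.42.0, limma-voom 3.58.1, other factors, filters, covariates, and thresholds, a replicate block, the 6 libraries compared, and leaving out each library. The 6 genes, lists, and tests were chosen with earlier results of these data known. Calls among LSK markers in p53-/- against p53R248W/+ LSKs are not reported here. Named genes were the 6, the called genes of each list (at most 5) or its smallest p, genes with a defining role, and the 2 nearest in pattern. *Wrap53*, *Ndn*, and the pair *Camp* and *Ltf* were named after their values were seen.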

Additional observations from a re-analysis of the deposited data

How the results depend on the processing

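The call of *Cdkn1a* in p53-/- against p53+/+ LSKs held under 16 of 16 alternatives, with log2 fold changes from -2.41 to -1.83. Against p53R248W/+ LSKs it held under 14 of 16 (-2.10 to -1.54). *Mdm2*, *Mdm4*, *Ppm1d*, and *Ccng1* were called under 0 of 16 in any comparison. *Trp53* was called under 3 of 16 against p53+/+ LSKs (DESeq2, the threshold of 0.1, and without p53+/+ replicate 1) and 2 of 16 against p53R248W/+ LSKs (DESeq2 and the 6 libraries compared). Depth limits no value of the 6 genes, since their counts were at least 183 per library. In this paragraph counts of calls follow 2 comparisons in this order, p53-/- against p53+/+ and then p53-/- against p53R248W/+, unless said otherwise. The causes of the shifts were not tested.

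With DESeq2, calls were 2 and 2 of the 6 genes, 1552 and 1325 of all genes, 2 (against p53+/+) of the stability regulators, 3 (against p53R248W/+) of the kinases and sensors, 1 and 1 of the p21 partners, 1 (against p53+/+) of the cyclin G1 partners, 11 and 8 of the other targets, 9 and 10 of the stress genes, 5 and 8 of the proliferation genes, and 3 and 4 of the sex-linked genes, with 6 of all genes in p53R248W/+ against p53+/+. At an adjusted p below 0.1 they were 2 of the 6 genes (against p53+/+), 1309 and 1069 of all genes (2 for p53R248W/+ against p53+/+), 3 kinases and sensors (against p53R248W/+), 1 stability regulator (against p53+/+), 1 and 1 p21 partner, 1 cyclin G1 partner (against p53+/+), 10 and 6 other targets, 11 and 8 stress genes, 5 and 5 proliferation genes, and 1 sex-linked gene (against p53R248W/+). With the fit to the 6 libraries compared they were 2 of the 6 genes (against p53R248W/+), 894 and 208 of all genes, 2 stability regulators, 1 p21 partner, 1 cyclin G1 partner, and 9 stress genes (against p53+/+), and 0 kinases and sensors and 0 cyclin G1 partners (against p53R248W/+).

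Same-numbered libraries of p53+/+ and p53R248W/+ correlated at 0.361, 0.543, and 0.0388 (replicates 1, 2, and 3) in their deviations from the genotype means. Within these genotypes every library correlated best with its own number. Their sample names also follow matching forms, whereas the p53-/- libraries are named in another form. The labels state no pairing or batch, so a separate preparation of the p53-/- libraries cannot be told apart from genotype. Same-numbered libraries correlated at 0.00567, -0.0946, and -0.0263 for p53+/+ with p53-/- and at 0.0678, -0.108, and 0.132 for p53R248W/+ with p53-/-. Since not every pair was above 0.1, the numbers were not taken to pair the libraries. The replicate block was fitted to all 9 libraries, and no fit that pairs only p53+/+ with p53R248W/+ libraries was run. *Cdkn1a* was lower in p53R248W/+ in 3 of 3 same-numbered pairs with p53+/+, and with the replicate block its log2 fold change was -0.29 (adjusted p = 1.00, edgeR). With the number as a replicate block, calls were 882 and 672 of all genes (2 for p53R248W/+ against p53+/+), 2 stability regulators and 1 p21 partner (against p53+/+), 7 and 1 other targets, 7 and 7 stress genes, 6 proliferation genes and 4 sex-linked genes (against p53R248W/+), *Trp53* in p53R248W/+ against p53+/+ LSKs was 0.0587, and *Cdkn1a* had an adjusted p of 0.00147 and 0.00179 (edgeR).

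With Y-linked expression in the model, calls were 1 kinase or sensor and 1 stability regulator (against p53+/+), and 162 of all genes, 0 kinases and sensors, 0 cyclin G1 partners, 1 other target, and 0 proliferation genes (against p53R248W/+), *Trp53* in p53R248W/+ against p53+/+ LSKs was 0.0021, and *Mdm4* in p53-/- against p53R248W/+ LSKs was 0.19. With limma-voom they were 1 and 0 kinases and sensors, 1 other target (against p53+/+), 2 and 2 stress genes, and 0 cyclin G1 partners (against p53R248W/+), and *Trp53* in p53R248W/+ against p53+/+ LSKs was 0.12. With DESeq2's size factors in edgeR, or at least 10 counts in every library, 1 other target was called against p53R248W/+, and the latter filter left 0 of all genes called in p53R248W/+ against p53+/+ LSKs.

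Leaving out 1 library gave 1 to 2 and 0 to 1 calls among the 6 genes, 37 to 499 and 77 to 1559 among all genes, 0 to 3 and 0 to 5 kinases and sensors, 0 to 1 stability regulators, 0 to 2 coactivators, and 0 to 1 cyclin G1 partners (against p53R248W/+), 0 to 1 and 0 to 1 p21 partners, 0 to 5 and 0 to 5 other targets, 0 to 4 and 0 to 6 stress genes, 0 to 3 and 0 to 7 proliferation genes, and 0 to 4 sex-linked genes (against p53R248W/+). In p53R248W/+ against p53+/+ LSKs it gave log2 fold changes of -0.33 to 0.48 for *Trp53*, -0.12 to 0.0588 for *Mdm2*, -0.37 to 0.13 for *Mdm4*, and -0.12 to 0.21 for *Ccng1*, so none of these has a settled direction. *Mdm4* in p53-/- against p53R248W/+ LSKs ran from -0.28 to 0.20. The order of the 3 genotypes by mean CPM held for 2 to 6 of the 6 genes, with *Cdkn1a* and *Ppm1d* keeping theirs in all 9 cases.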
